A study of Mus musculus with 6 samples.

Results

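AMPA and kainate receptors are encoded by 9 genes in the mouse, the 4 AMPA receptor genes *Gria1* to *Gria4* and the 5 kainate receptor genes *Grik1* to *Grik5*. All 9 were found by symbol among the 21667 named genes of the tables, all 9 passed the filter on low values, and they are described here in somatosensory cortex of adult mice with and without a conditional deletion of *Mef2c*. AMPA receptors are glutamate-gated cation channels made of subunits GluA1 to GluA4, and they carry most of the fast excitatory current at cortical synapses. The subunit mix sets conductance, kinetics and calcium permeability, and channels that contain an edited GluA2 let through little calcium. Kainate receptors are assembled from the low-affinity subunits GluK1 to GluK3 and the high-affinity subunits GluK4 and GluK5, which need a low-affinity partner, and they act both at synapses and on transmitter release.

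PolyA-selected RNA was sequenced from 3 control mice (*Mef2c* fl/fl) and 3 *Mef2c* cKO mice (*Mef2c* fl/fl; Emx1-Cre), all males of the mixed SVeV-129; C57BL/6J strain. Replicate 1 of each genotype was 14 weeks old and replicates 2 and 3 were 12 weeks old. The floxed *Mef2c* alleles were thus shared by both genotypes, and Cre under *Emx1* acts from embryonic life in forebrain excitatory neurons and some glia but not in cortical interneurons. The question asked of the data is how the mRNA of these receptor genes differs in adult cortex after this deletion.

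The deposited values are RPKM. The lengths behind them differed between mice for the same gene (for *Gria1*, from 15856 to 70287 bases), so whole reads were recovered from each table and scaled to that mouse's total without any length, as CPM (reads of a gene for each 1000000 reads of the mouse). Recovered totals were 34011091, 49393940 and 51542029 reads in control replicates 1 to 3 and 32743798, 19326365 and 54128334 reads in cKO replicates 1 to 3. The receptor genes had between 386 reads (*Grik4*, cKO replicate 2) and 60457 reads (*Gria2*, cKO replicate 3) per mouse, for which the counting error was 5.09% and 0.407%. *Grik4* and *Grik5* had no settled count in control replicate 2, so their control values rest on 2 mice. In limma, a gene passed when its Benjamini-Hochberg adjusted p-value over 14544 tested genes was under 0.05 and its absolute log2 fold change was above 0.3. Fold changes are on the log2 scale of CPM with a pseudocount of 0.1.

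*Mef2c*, the targeted gene (chromosome 13:83643033-83806684, plus strand), stood at 800, 772 and 800 CPM in control replicates 1 to 3 and at 1231, 1276 and 1468 in cKO replicates 1 to 3. Its log2 fold change was 0.74 (SE 0.07, adjusted p = 2.2e-04). These reads cover the whole gene, including all that lies outside the floxed part, so the value does not check the genotype labels. Libraries of the same genotype had a Pearson's r of 0.992 to 0.995 across 11820 genes, and libraries of different genotypes one of 0.978 to 0.981 (genes are no independent replicates).

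Of the 9 receptor genes, 2 rose in *Mef2c* cKO cortex (*Gria1* and *Gria3*), 3 fell (*Gria4*, *Grik1* and *Grik4*) and 4 did not pass both cut-offs (*Gria2*, *Grik2*, *Grik3* and *Grik5*). Over all tested genes 13.1% passed, 5.64% as higher and 7.46% as lower. The count was 2 receptor genes without control replicate 2, and 3 without control replicate 3, cKO replicate 2 or cKO replicate 3, with *Gria1* and *Gria3* among them each time. Among the 4 genes outside the cut-offs, *Gria2* and *Grik3* had an adjusted p-value under 0.05 with a fold change below the limit, as opposed to *Grik2* and *Grik5*, whose adjusted p-values were 0.052 and 0.068. An adjusted p-value under 0.05 was thus reached by 7 of 9 genes, against 15.4% of all tested genes. Control and cKO mice did not overlap for any of the 9 genes, with the cKO mice above in 5 and below in 4. Of all tested genes 35.4% were separated in this way, 17.3% with the cKO mice above and 18.1% with them below. The exact two-sided permutation test gave p = 0.1 for each of the 9, the smallest it can give with these numbers of mice.

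**Figure D1:**
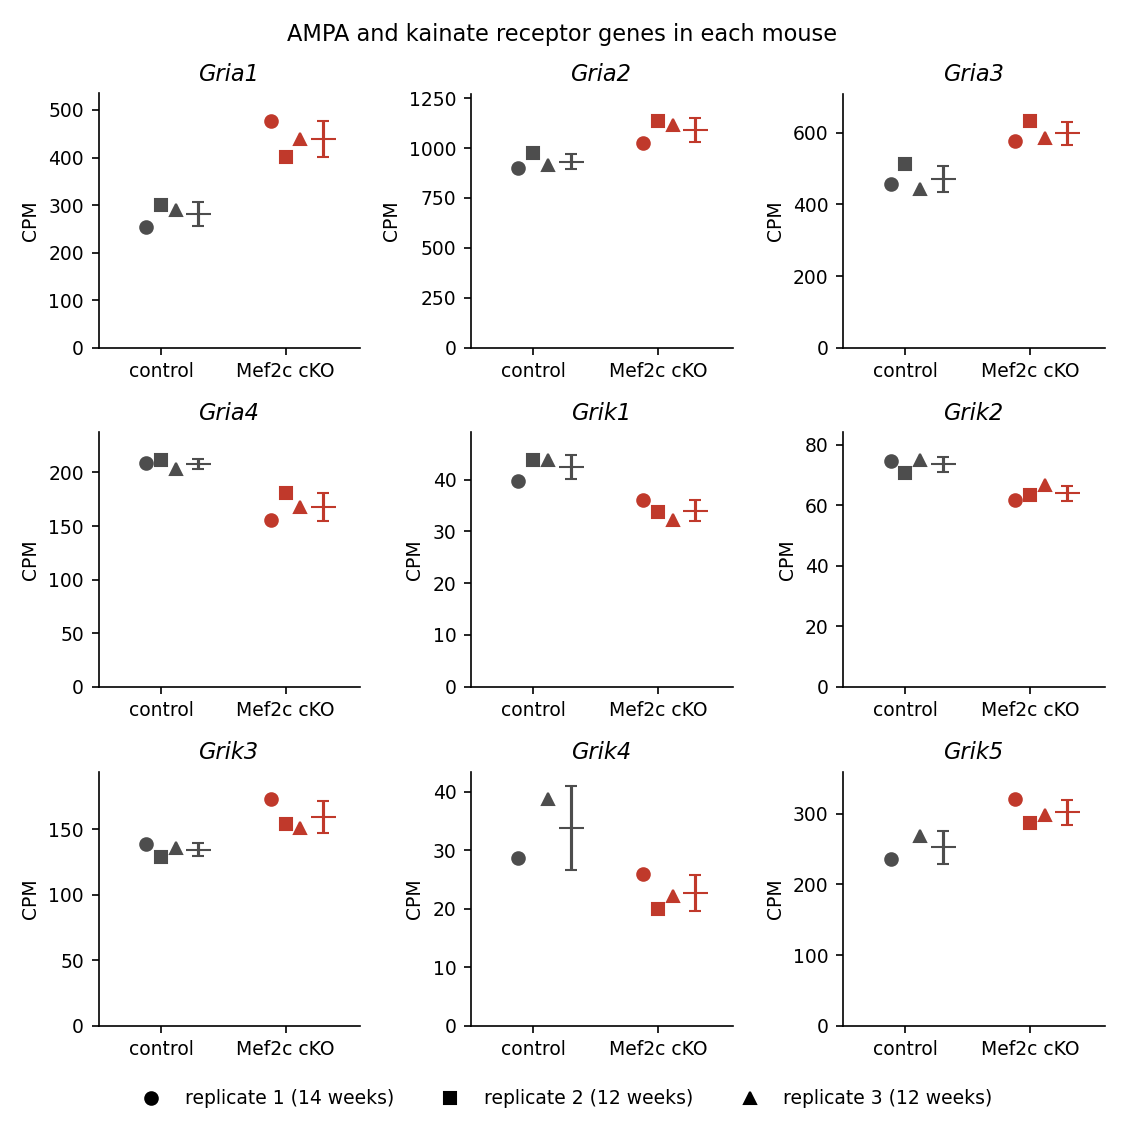
CPM (y axis, from 0) of the 9 receptor genes in each control mouse (grey) and each Mef2c cKO mouse (red), with the marker shape giving the replicate and the bar at the right of each group its mean ± SD. No gene has a control mouse inside the cKO range; Grik4 and Grik5 lack control replicate 2, which had no settled count.

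*Gria1* (chromosome 11:56824889-57143746, plus strand, NCBIM37, as for all gene coordinates here) encodes GluA1, the subunit most tied to activity-dependent insertion of receptors at synapses. It was measured at 253, 300 and 291 CPM in control replicates 1 to 3 and at 477, 400 and 440 in cKO replicates 1 to 3. Every cKO mouse was above every control by at least 99.8 CPM. The rise was 1.56-fold, with a log2 fold change of 0.64 (SE 0.09, adjusted p = 9.9e-04), the lowest p-value of the 9 genes.

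*Gria2* (chromosome 3:80488858-80606713, minus strand) encodes GluA2, the subunit whose edited form blocks calcium entry. Control mice had 902, 976 and 918 CPM and cKO mice 1024, 1137 and 1117, the highest levels of the family. The groups were separated by 48.0 CPM. The log2 fold change was 0.23 (SE 0.06, adjusted p = 0.044), under the limit of 0.3. In control replicate 2 the *Gria2* reads fitted 4 lengths, and the count nearest the other mice was taken, since the next candidate was 5854 CPM.

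*Gria3* (chromosome X:38754031-39031778, plus strand) encodes GluA3, which in cortex mostly pairs with GluA2. Its values were 458, 512 and 443 CPM in control mice and 576, 633 and 584 in cKO mice. Control replicate 2 was the highest control and cKO replicate 2 the highest cKO, and the groups stayed 64.0 CPM apart. The log2 fold change was 0.35 (SE 0.07, adjusted p = 0.010), a rise of 1.27-fold.

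*Gria4* (chromosome 9:4417899-4796234, minus strand) encodes GluA4, a fast-gating subunit that in cortex is prominent in parvalbumin interneurons. It was the only AMPA receptor gene that fell. Control mice had 209, 212 and 203 CPM, the tightest group of the 9 genes (CV 2.11%), and cKO mice had 155, 181 and 168. The log2 fold change was -0.31 (SE 0.06, adjusted p = 0.011), close to the limit on the fold change. Without cKO replicate 1 it was -0.26 and without control replicate 2 it was -0.299, so that *Gria4* no longer passed.

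Among the kainate receptor genes, *Grik1* (chromosome 16:87896441-88289947, minus strand) encodes the low-affinity subunit GluK1, which cortical interneurons also express. It had 39.7, 43.8 and 43.8 CPM in control mice and 36.2, 33.7 and 32.2 in cKO mice. The closest pair, control replicate 1 and cKO replicate 1, were both 14 weeks old and differed by 3.50 CPM. *Grik1* fell, with a log2 fold change of -0.32 (SE 0.07, adjusted p = 0.020). The call was lost without control replicate 2 or 3 and without cKO replicate 2 or 3, with adjusted p-values of 0.070, 0.068, 0.056 and 0.065.

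*Grik2* (chromosome 10:48819266-49508572, minus strand) encodes GluK2, the core subunit of most kainate receptors in forebrain. Its values were 74.7, 70.6 and 75.0 CPM in control mice and 61.7, 63.4 and 66.6 in cKO mice. The groups did not overlap, with a gap of 3.99 CPM, and the log2 fold change was -0.20 (SE 0.06, adjusted p = 0.052). *Grik3* (chromosome 4:125167944-125391417, plus strand) encodes GluK3, a subunit of particularly low glutamate affinity. It had 138, 129 and 136 CPM in control mice and 173, 154 and 151 in cKO mice. Its log2 fold change was 0.24 (SE 0.07, adjusted p = 0.038), under the limit of 0.3.

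*Grik4* (chromosome 9:42326218-42752576, minus strand) encodes the high-affinity subunit GluK4. It had 28.6 and 38.8 CPM in control replicates 1 and 3 and 26.0, 19.97 and 22.2 in cKO replicates 1 to 3. The control values were the most scattered of the 9 genes (CV 21.3%), and control replicate 1 lay 2.68 CPM above the highest cKO mouse. The log2 fold change was -0.56 (SE 0.15, adjusted p = 0.044). The reads of control replicate 2 fitted 31.9 or 59.2 CPM, among other lengths farther from the other mice, and both of these values are above all 3 cKO mice. *Grik4* no longer passed without cKO replicate 2 (adjusted p = 0.11) or cKO replicate 3 (adjusted p = 0.097), and it could not be tested without control replicate 1 or 3. Nor did it pass without control replicate 2 (adjusted p = 0.055), a mouse that had no *Grik4* count. There the log2 fold change stayed at -0.56, and only the variance moderation and the adjustment over all genes differed.

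*Grik5* (chromosome 7:25794872-25857388, minus strand) encodes the other high-affinity subunit, GluK5. Its values were 236 and 269 CPM in control replicates 1 and 3 and 321, 287 and 298 in cKO mice. All cKO mice were higher, and the log2 fold change was 0.26 (SE 0.08, adjusted p = 0.068). The reads of control replicate 2 fitted 135, 269.8 or 1079 CPM, of which the first and the second are below all cKO mice and the last above them. The genes of the high-affinity subunits thus differed from control in opposite directions, of which the decrease in *Grik4* passed the cut-offs.

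**Figure D2:**
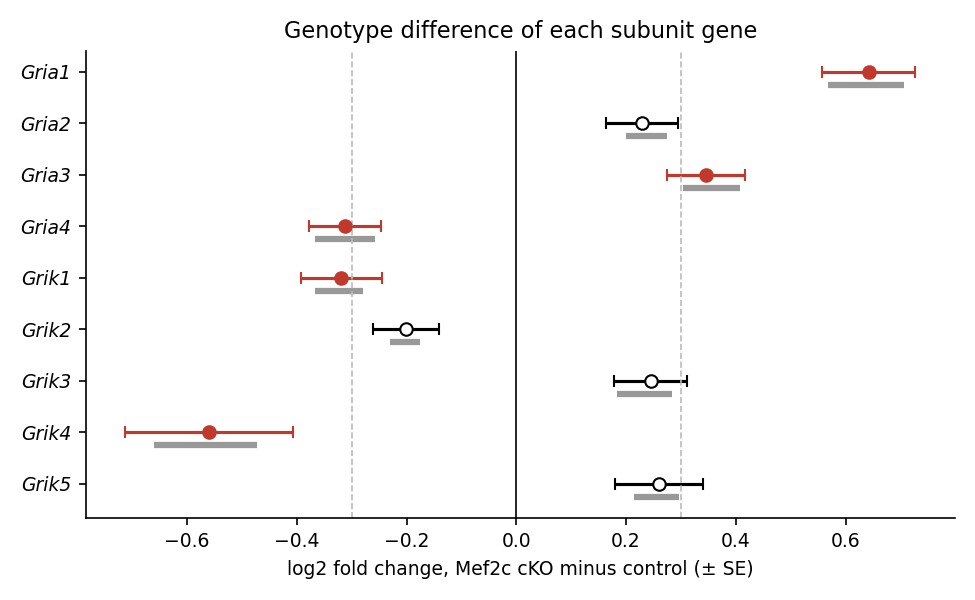
Log2 fold change (x axis, Mef2c cKO minus control) of each receptor gene, with bars for ± SE and red filled points for the genes past both cut-offs. Grey bars span the values when 1 mouse at a time is left out, where the gene could then be tested. Dashed lines mark the limits of -0.3 and 0.3. No gene crosses 0, which for the grey bars follows from the lack of overlap between genotypes.

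At both ages the direction of all 9 differences was the same, which follows from the lack of overlap between the genotypes. With 1 mouse per genotype at 14 weeks, a difference between the ages was not tested. For *Gria1* the log2 ratio of cKO to control was 0.91 at 14 weeks and 0.51 at 12 weeks. For *Grik4* it was -0.14 at 14 weeks and -0.88 at 12 weeks, where a single control mouse had a count, and for *Grik1* -0.13 and -0.41. Thus the 14-week pair was farther apart than the 12-week mice for *Gria1* and closer together for *Grik4* and *Grik1*. The other kainate receptor genes were farther apart at 14 weeks, with -0.28 and -0.16 for *Grik2*, 0.32 and 0.21 for *Grik3*, and 0.44 and 0.12 for *Grik5*. So was *Gria4* (-0.43 and -0.25), while *Gria2* (0.18 and 0.25) and *Gria3* (0.33 and 0.35) were closer together. In a fit of the 12-week mice alone, *Gria1* and *Grik1* passed, *Gria3* (log2 fold change 0.35, adjusted p = 0.069) and *Gria4* (-0.25, adjusted p = 0.081) did not, and *Grik4* and *Grik5* could not be tested. With age as a covariate over all mice, *Gria1*, *Gria3*, *Gria4* and *Grik1* passed and *Grik4* did not (adjusted p = 0.073).

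To compare the subunits with each other, CPM were divided by the kilobases of all exons of each gene. In control cortex *Gria2* was highest, at 134 ± 5.60 CPM per kb (SD, n = 3). *Grik5* followed at 65.8 ± 6.02 (n = 2), then *Gria3* at 47.8 ± 3.70, *Gria1* at 46.6 ± 4.11 and *Gria4* at 33.2 ± 0.699 (n = 3 each). The remaining kainate receptor genes were lower, with *Grik3* at 14.95 ± 0.561, *Grik1* at 12.7 ± 0.720, *Grik2* at 8.88 ± 0.302 (n = 3 each) and *Grik4* at 5.70 ± 1.22 (n = 2). Of neighbours in this order, only *Gria3* and *Gria1* had overlapping ranges.

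In *Mef2c* cKO cortex the order was the same except that *Gria1*, at 72.7 ± 6.39 CPM per kb (SD, n = 3), stood above *Gria3*, at 60.7 ± 3.14 (n = 3), with no overlap between them. *Gria1* there overlapped with *Grik5*, at 78.7 ± 4.57 (n = 3). The summed level of the 4 AMPA receptor genes was 251, 276 and 257 CPM per kb in control mice and 309, 323 and 319 in cKO mice. The 3 low-affinity kainate receptor genes together stood at 36.3, 36.0 and 37.3 in control mice and at 37.6, 34.9 and 34.5 in cKO mice, which overlapped. These orders depend on the exons counted. With the longest transcript in place of all exons, *Gria3* came next after *Gria2* in both genotypes.

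**Figure D3:**
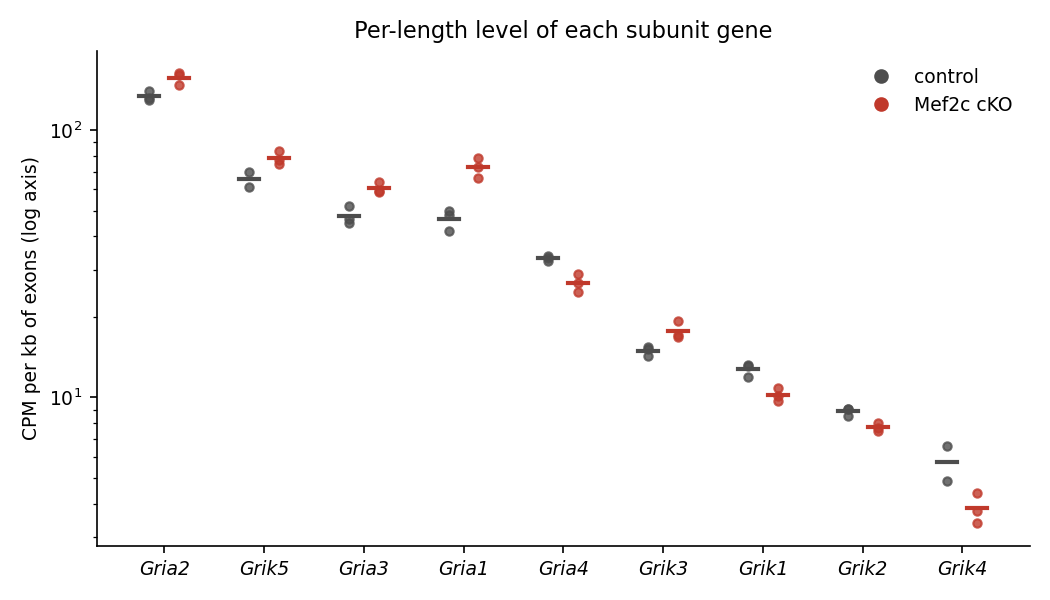
CPM per kb of exons (y axis, log scale) of the 9 receptor genes, ordered by the control mean, with 1 point per mouse and a line at the mean of each genotype. Gria2 is highest in both genotypes and Grik4 lowest, and Gria1 and Gria3 change places between control and cKO.

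*Gria1* had a larger and *Gria4* a smaller share of the AMPA receptor mRNA pool in every cKO mouse than in any control. *Gria1* made up 16.7%, 18.0% and 18.7% of the per-length AMPA reads in control mice and 25.5%, 20.5% and 22.8% in cKO mice. *Gria4* made up 13.3%, 12.3% and 12.6% in control mice and 8.002%, 8.93% and 8.37% in cKO mice. *Gria2* made up the most in both genotypes, with 51.2% ± 0.356 in control and 49.5% ± 1.68 in cKO mice (SD, n = 3 each), and the shares of *Gria3* overlapped between genotypes. Per length, *Gria1* over *Gria4* was 1.26, 1.47 and 1.48 in control mice and 3.19, 2.30 and 2.72 in cKO mice. *Gria1* over *Gria2* was 0.323, 0.354 and 0.365 in control mice and 0.537, 0.405 and 0.453 in cKO mice. The members were chosen with results known, so these shares and ratios are given with no test.

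In the kainate receptor pool, *Grik5* made up 59.9% and 61.5% in control replicates 1 and 3 and 66.6%, 66.1% and 67.0% in cKO mice. The shares of *Grik1*, *Grik2* and *Grik4* were lower in every cKO mouse than in these control mice. *Grik1* went from 11.6% to 8.64%, *Grik2* from 8.38% to 6.55% and *Grik4* from 5.24% to 3.24% (means of 2 control and 3 cKO mice). The share of *Grik3* overlapped between genotypes. Per length, *Grik3* over *Grik1* was 1.29, 1.09 and 1.15 in control mice and 1.78, 1.70 and 1.74 in cKO mice.

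The promoters of 6 of the 9 genes (*Gria2*, *Gria4*, *Grik2*, *Grik3*, *Grik4* and *Grik5*) were read from RefSeq in build GRCm38.p6, from 250 bases before to 50 bases after the start, while *Gria1*, *Gria3* and *Grik1* were not matched. Those of *Gria4* and *Grik4* are shown because these are the genes with a promoter entry that fell. Both are on the minus strand of chromosome 9, at chr9:4796185-4796484 and chr9:42944322-42944621, printed 5′ to 3′ with the GC box (GGGCGG on either strand) in capitals.
Gria4: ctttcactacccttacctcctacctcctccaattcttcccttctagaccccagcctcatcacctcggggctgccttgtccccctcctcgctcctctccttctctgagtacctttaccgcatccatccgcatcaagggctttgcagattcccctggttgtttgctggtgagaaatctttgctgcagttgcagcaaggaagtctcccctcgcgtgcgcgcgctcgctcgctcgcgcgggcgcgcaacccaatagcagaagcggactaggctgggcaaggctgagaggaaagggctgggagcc
Grik4: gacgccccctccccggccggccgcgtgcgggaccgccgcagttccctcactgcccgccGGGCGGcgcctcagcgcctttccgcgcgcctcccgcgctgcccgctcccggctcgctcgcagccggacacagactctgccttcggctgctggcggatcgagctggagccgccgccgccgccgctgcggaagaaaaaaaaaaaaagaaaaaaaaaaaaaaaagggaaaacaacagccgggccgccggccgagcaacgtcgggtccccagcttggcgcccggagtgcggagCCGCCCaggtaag
The *Gria4* window held no GC box and the *Grik4* window 2, and the GC content was 59.7% and 70.0%. The MEF2 consensus, searched on both strands, was found in none of the 6 promoters and in 3.19% of the 32851 promoters of the table. The GC box was found in *Grik3* (7 matches), *Grik4* and *Grik5* (2 each) and in 35.7% of all promoters. The half-site TGACG of the cyclic AMP response element was found in *Grik2* and in 20.8% of all promoters. The TATA box TATAAA, some of whose matches can overlap MEF2 matches, was found in none of the 6 and in 13.6% of all promoters. A match is a description of these letters, and the absence of one says nothing of sites outside these windows.

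AMPA receptors leave the endoplasmic reticulum and reach synapses together with auxiliary subunits, which set their gating and anchoring. Of 14 tested auxiliary subunit genes 4 rose and 4 fell, with a median log2 fold change of -0.03, beside 13.1% called and a median of 0.01 over all tested genes. The genes of the transmembrane AMPA receptor regulatory proteins differed in both directions. *Cacng2* (stargazin) fell from 70.1 ± 3.55 to 52.3 ± 1.65 CPM (SD, n = 3 each), with a log2 fold change of -0.42 (SE 0.06, adjusted p = 0.0020). *Cacng3*, its close relative, fell from 110 ± 9.93 to 78.9 ± 5.90, with a log2 fold change of -0.47 (SE 0.08, adjusted p = 0.0044). *Cacng8* rose from 33.8 ± 2.78 to 42.8 ± 5.02, with a log2 fold change of 0.34 (SE 0.10, adjusted p = 0.048). The call of *Cacng8* was lost without control replicate 1 or 3 or cKO replicate 1 or 3, with adjusted p-values of 0.14, 0.13, 0.13 and 0.066.

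Of the other auxiliary subunits, *Cnih2*, a cornichon that slows channel closing, rose from 72.5 ± 17.6 (n = 3) to 129 ± 8.80 CPM (n = 2), with a log2 fold change of 0.86 (SE 0.17, adjusted p = 0.013). Its call rests on how the counts were settled, since with ties settled within 1.5-fold of the other mice, in place of 3-fold, the log2 fold change was 0.52 (adjusted p = 0.25). It was also lost without the variance trend (adjusted p = 0.057). *Shisa9* (CKAMP44) rose from 48.8 ± 2.65 to 71.2 ± 3.01 and *Shisa7* from 99.8 ± 10.9 to 126 ± 4.77 (n = 3 each), with log2 fold changes of 0.54 and 0.34 (adjusted p = 5.9e-04 and 0.021). *Syndig1*, a transmembrane protein that promotes excitatory synapse development, fell from 47.7 ± 0.432 to 33.7 ± 2.38 (n = 3 each), with a log2 fold change of -0.50 (adjusted p = 0.0014). *Gsg1l*, an auxiliary subunit that dampens AMPA currents, fell from 68.5 ± 7.96 (n = 3) to 50.5 ± 4.15 (n = 2), with a log2 fold change of -0.44 (adjusted p = 0.028). *Gsg1l* no longer passed without control replicate 2 or 3 (adjusted p = 0.062 and 0.065), nor *Shisa7* without control replicate 1 or 3 or cKO replicate 1 (adjusted p = 0.073, 0.070 and 0.068). With 2 cKO counts each, *Gsg1l* could not be tested without cKO replicate 1 or 3, nor *Cnih2* without cKO replicate 2 or 3. None of the 8 genes overlapped between genotypes, beside 35.4% of all tested genes separated in this way. They were named for passing the cut-offs in these same data, so the separation adds no support.

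Of the genes for assembly and for intracellular trafficking none passed both cut-offs, and with 13.1% of all tested genes called, lists of this size may hold few or none. Of 5 assembly factors tested none passed, the lowest p-value being that of *Cpt1c*, a neuronal protein of the endoplasmic reticulum (log2 fold change 0.22, SE 0.06, adjusted p = 0.048). Of 10 trafficking and anchoring genes none passed, the lowest p-value being that of *Nsf*, the ATPase that binds GluA2 (log2 fold change 0.27, SE 0.06, adjusted p = 0.018, and 0.31 without cKO replicate 1, past the limit). In limma 1 assembly and 2 trafficking genes had an adjusted p-value under 0.05, with fold changes under the limit, beside 15.4% of all tested genes. An unadjusted p under 0.05 was reached by 1 and 4 genes, beside 4026 of 14544 tested genes. By limma-voom none of the 4 and 9 genes it could test passed.

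Of 5 tested secreted and transsynaptic partners 1 rose and 2 fell, beside 5.64% higher and 7.46% lower over all tested genes. The neuronal pentraxins, which cluster AMPA receptors from outside the cell, differed in opposite directions. *Nptx1* had 398, 411 and 367 CPM in control mice and 577, 558 and 598 in cKO mice (log2 fold change 0.56, SE 0.06, adjusted p = 3.7e-04). *Nptx2* (Narp), an activity-regulated gene, had 66.4, 91.7 and 64.8 in control mice and 49.1, 22.9 and 48.5 in cKO mice (log2 fold change -0.95, SE 0.27, adjusted p = 0.045), with cKO replicate 2 far below the other cKO mice, and it no longer passed without control replicate 1, 2 or 3 (adjusted p = 0.081, 0.14 and 0.075). Without cKO replicate 2 the log2 fold change of *Nptx2* was -0.59 (adjusted p = 0.032). *Nrn1* (neuritin) had 234 and 208 in control replicates 1 and 3 and 173, 169 and 168 in cKO mice (log2 fold change -0.38, SE 0.07, adjusted p = 0.0081). With 2 control counts, *Nrn1* could not be tested without control replicate 1 or 3.

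Of 4 kainate receptor partners 2 fell and none rose, beside 7.46% lower and 5.64% higher over all tested genes. *Neto2*, an auxiliary subunit of kainate receptors, had 69.7, 60.9 and 60.3 CPM in control mice and 52.4, 40.5 and 49.5 in cKO mice (log2 fold change -0.43, SE 0.10, adjusted p = 0.023). *C1ql2*, a secreted protein that recruits kainate receptors at mossy fibre synapses, was low, at 3.59, 2.61 and 2.89 in control mice and 0.855, 0.983 and 1.48 in cKO mice (log2 fold change -1.40, SE 0.22, adjusted p = 0.0029). Both were lower in every cKO mouse, as were 18.1% of all tested genes, and both were named for passing the cut-offs. *Neto2* no longer passed without control replicate 1 (adjusted p = 0.079).

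Of the 3 genes for RNA editing enzymes, *Adarb1* (ADAR2), which edits the GluA2 transcript at the position that sets calcium permeability, fell from 297, 301 and 289 CPM in control mice to 180, 203 and 192 in cKO mice. The log2 fold change was -0.63 (SE 0.06, adjusted p = 1.7e-04). Editing itself cannot be read from gene counts. *Adar* and *Adarb2* did not pass. Together the 6 partner lists had 14 of 41 tested genes past the cut-offs, 5 higher and 9 lower. This is 34.1%, beside 13.1% of all tested genes, and their median log2 fold change was 0.01, the same as over all tested genes to 2 decimals.

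**Figure D4:**
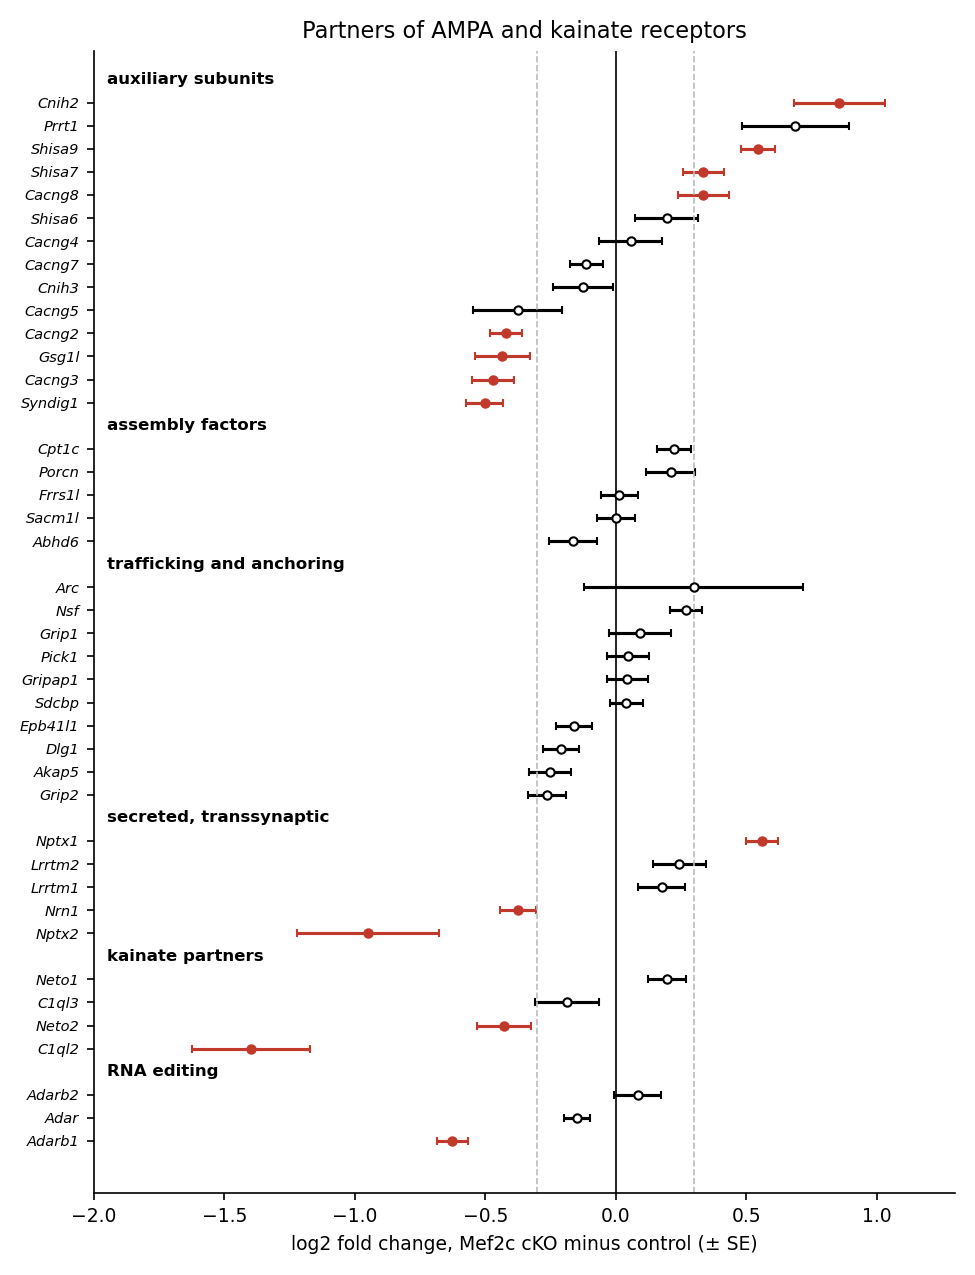
Log2 fold change (x axis, Mef2c cKO minus control, bars ± SE) of the tested partner genes of AMPA and kainate receptors, grouped by role. Red filled points are the 14 genes past both cut-offs and dashed lines mark -0.3 and 0.3; auxiliary subunits lie on both sides of 0 and no assembly or trafficking gene passes.

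Of the remaining ionotropic glutamate receptor genes, 8 of 9 were tested and 2 passed, beside 13.1% of all tested genes. *Grin3a*, an NMDA receptor subunit that lowers calcium flow, rose from 23.6 ± 1.17 to 35.5 ± 2.44 CPM (SD, n = 3 each), with a log2 fold change of 0.59 (SE 0.08, adjusted p = 0.0011). *Grin2a*, the subunit that replaces *Grin2b* during maturation, fell from 97.6 ± 14.1 to 70.6 ± 12.5, with a log2 fold change of -0.47 (SE 0.13, adjusted p = 0.045). It passed without cKO replicate 1 but not without any other single mouse, where the adjusted p was 0.054 to 0.14.

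The 5 genes whose log2 CPM followed *Gria1* most closely over the 6 mice, of 11820 genes with a count in every mouse, were *Slc25a20* (Pearson r = 0.997), *Slc26a4* (0.996), *Atoh8* (0.995), *Rnaset2b* (0.995) and *Ccdc80* (0.995). The 6 mice share the genotype split, which alone gives a high r. *Ccdc80* had 4.44, 5.91 and 5.45 CPM in control mice and 18.8, 12.8 and 17.4 in cKO mice. Of the receptor genes, *Gria3* (0.859) and *Grik3* (0.858) were nearest to *Gria1*, and *Gria4* (-0.957) and *Grik2* (-0.93) the most opposed.

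In whole tissue, fewer cells of a type and less RNA per cell cannot be told apart. Markers of other cell types moved alongside the receptor genes, and their part in the differences above was not tested. The marker counts below stand beside 13.1% of all tested genes past the cut-offs, and 35.4% of single genes without overlap between genotypes. Of 12 interneuron markers *Pvalb* fell, *Sst* and *Npy* rose and 9 did not pass, among them *Gad1*, *Gad2* and *Slc32a1*. The sum of the 10 interneuron markers with counts in all mice was 1363 to 1435 CPM in control mice and 1291 to 1324 in cKO mice. *Pvalb*, the marker of the interneurons in which *Gria4* is prominent, had 62.7, 57.2 and 60.9 in control mice and 31.5, 39.3 and 33.5 in cKO mice. *Sst* no longer passed without control replicate 1, 2 or 3 or cKO replicate 2 (adjusted p = 0.073 to 0.12), nor *Npy* without control replicate 1 or 2 or cKO replicate 1 or 2 (adjusted p = 0.060 to 0.090). Of 11 tested excitatory neuron markers 3 rose and 4 fell, and the sum of 8 overlapped between genotypes (4840 to 5904 and 4739 to 5844). Of 12 astrocyte markers *Aqp4* and *Gfap* rose and *Aldh1l1* fell, with a sum of 5551 to 5855 in control mice and 4960 to 5230 in cKO mice. Oligodendrocyte precursor markers (2 of 6 rose) summed to 86.6 to 97.5 over 4 genes in control mice and 111 to 118 in cKO mice. Of 10 oligodendrocyte markers 2 rose, and the sums of 9 overlapped (3241 to 5373 and 5308 to 6824). All 10 had a log2 fold change above 0, with a median of 0.51. In limma 9 had an unadjusted p under 0.05, beside 4026 of 14544 tested genes. None of 10 microglial or 10 endothelial markers passed, with microglial sums of 153 to 165 and 136 to 148 over 8 genes and endothelial sums of 353 to 382 and 338 to 364 over 9. At an unadjusted p under 0.05 in limma there were 2 microglial genes and 1 endothelial gene, beside the same 4026 of 14544 tested genes. By limma-voom none of either list was called. No marker in these sums was at 0 in all mice.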

How the data were processed

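The authors selected polyA RNA, prepared directional libraries, aligned reads to mm9 with TopHat and Bowtie, counted genes with HTSeq and converted counts to RPKM, which are the deposited values, in 1 table per mouse. Nothing in the sources used here gives the versions of these tools.

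Whole counts and sample totals were recovered from the steps in each RPKM table, with 94.6% to 99.3% of values above 0 given a count per mouse. Values that fitted several lengths were settled by the other mice within 3-fold, or else left missing, so single counts can be wrong. Rows without a gene name, at most 0.0853% of a total, were left out. Recovered counts scaled to the sample total (CPM) were fitted as log2(CPM + 0.1) with limma 3.58.1 in R 4.3.3 (lmFit, eBayes with a trend) over genes above 0.5 CPM in every mouse of a genotype, with at least 2 values per genotype. No count model was fitted to the recovered reads other than limma-voom, as an alternative. The recovery and the fit were also run on simulated tables, built from the lengths and mean levels that the recovery gave. Those runs left out the step that settles values by the other mice, so they cannot show its errors. Single genes were also compared by an exact permutation test. The methods call the controls littermates, and which mice share a litter is not given, so the mice may not be independent. The p-values of limma set the genotype difference against the spread between mice, moderated over all genes, and take no account of litters. Coordinates and exon lengths are from gencode vM1 (NCBIM37). Tables were handled with Python 3.11.15, pandas 2.3.3 and numpy 2.4.6. Counting errors cover counting only. The SD give the spread between mice, and the SE are those of limma, from the moderated spread between mice.

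The members and lists were chosen with earlier results of these data known. Named are the 9 receptor genes, *Mef2c*, the partner genes past the cut-offs or, where a list had none, the one with the lowest p-value, other ionotropic glutamate receptor genes past the cut-offs, and the 5 genes most like the member with the lowest p-value. Markers are named by list, those past the cut-offs.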

Additional observations from a re-analysis of the deposited data

How the results depend on the processing

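Over the alternatives built on recovered reads, the direction of the 9 receptor genes was that of the values above wherever a gene could be tested. Since the genotypes did not overlap, fits that left out mice or changed the pseudocount, filter or variance trend could give no other direction. *Gria1* passed in all 20, *Gria3* in 19, *Gria4* in 17, *Grik1* in 15 and *Grik4* in 8 of the 15 in which it could be tested. With 12-week mice only, the counts were 1197 genes of all tested, 2 receptor genes and 8 partner genes, against 1905, 5 and 14, with fewer mice. Without the variance trend 8 partner genes passed, and the cause was not tested; *Cacng8*, *Cnih2*, *Gsg1l*, *Shisa7*, *Nptx2* and *Neto2* were lost there (adjusted p = 0.057 to 0.11), as were *Grik4* and *Grin2a* (both 0.11). With age as a covariate *Cacng8*, *Nptx2* and *Grin2a* were lost (adjusted p = 0.069, 0.0645 and 0.058). At an absolute log2 fold change above 1 the counts were 468, 0 and 1, and at any fold 2234, 7 and 17. With the replicate block they were 1538, 3 and 11, where *Grik1* and *Grik4* had adjusted p-values of 0.066 and 0.16. Same-numbered mice of the 2 genotypes deviated from their group means with r of -0.18, -0.11 and -0.07, so the numbers were not read as pairs. The 6 fits that each lacked 1 mouse called 1491 to 1677 genes, 2 to 4 receptor genes and 10 to 14 partner genes. *Gria1* and *Gria3* remained in each of them. The lowest count, 2 receptor genes, came without control replicate 2; it was 3 without control replicate 3, cKO replicate 2 or cKO replicate 3.

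The deposited RPKM values, taken as they are, gave 14 genes of 7974 tested, 0 receptor genes and 0 partner genes, since the lengths behind them differ between mice (limma, adjusted p). There the log2 fold changes turned to -0.34 for *Gria2*, -2.53 for *Gria3*, 0.30 for *Gria4*, -1.74 for *Grik5*, 0.53 for *Grin2a*, -1.91 for *Grin3a*, 0.92 for *Cacng3*, -1.41 for *Cnih2*, -1.02 for *Shisa7*, -0.72 for *Cpt1c*, -0.19 for *Nptx1*, 0.41 for *Nrn1* and 1.22 for *Adarb1*, with SE of at least 1.295. Alternatives that left out counts settled by other mice, or settled them within 1.5-fold, were chosen after seeing the data, and each gave 5 receptor genes; within 1.5-fold *Cnih2* was lost (log2 fold change 0.52, adjusted p = 0.25). With the longest transcript as length, the share of *Grik2* among kainate reads fell by 2.74 percentage points in place of 1.82. The difference in the share of *Grik3*, 0.865 points, ran from -0.000305 without control replicate 3 to 1.73 without control replicate 1. Depth gave the receptor genes a counting error of up to 5.09% (*Grik4*, cKO replicate 2).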
